A study of Mus musculus with 6 samples.

Results

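Synaptic vesicle and exocytosis genes encode the proteins that load vesicles with transmitter, hold them at the release site and fuse them with the plasma membrane. The 48 genes described here were given as a list of names, from the synaptotagmins to the active zone scaffold Bsn, and each was measured by the brightest of its probe sets that carry 1 gene symbol. All 48 had such a probe set, among 18193 genes with one in all, and 39 of the 48 were bright enough to be tested, among 12703 genes tested. RNA came from the olfactory epithelium of 1-day-old mouse pups of mixed C57Black6/J and 129SvJ background, with 3 wild-type and 3 mutant pups and 1 array per pup. The series title names KLF7 target genes as the question; the labels give no allele, promoter or Cre for the mutant group, and list no treatment. The labels count the arrays of a group as biological replicates.

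An olfactory sensory neuron sends its axon to the olfactory bulb and releases glutamate there, with the vesicular transporter encoded by Slc17a6 filling the vesicles. Fusion is driven by SNARE proteins: a vesicle-bound VAMP pairs with a syntaxin and a SNAP-25 relative on the plasma membrane, synaptotagmin senses the calcium that triggers fusion, and NSF with its SNAP cofactors takes the used complexes apart. Many of these families have a neuronal member and a relative that most cells use for everyday membrane traffic.

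Whole-series checks were as follows. All 4 Klf7 probe sets were lower on the 3 mutant arrays with no overlap. Total deposited intensity per array ran from 10064207 to 14439788. The tissue label was checked on the mature neuron marker Omp, at log2 intensities of 8.81, 7.92 and 7.40 on wild-type arrays 1, 2 and 3 and 7.56, 7.41 and 8.06 on mutant arrays 1, 2 and 3, all well above the floor of 3.65 set for dim values. The first principal component, with 50.2% of the variance, set both arrays numbered 3 apart from the other 4, and markers of squamous epithelium, which lines the front of the nose, were uneven: their summed intensity was 6572 on wild-type array 2, 2826 and 2323 on mutant arrays 1 and 3, and between 484 and 960 on the other three. The part of these differences between arrays in the results below was not tested. In tissue RNA, fewer neurons and less RNA per neuron cannot be told apart.

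More exocytosis genes were lower than higher on average in the mutant, most of them neuron-enriched, but no single gene passed the threshold. Of the 39 tested members 31 had a lower mean on the mutant arrays, against 52.6% of all genes tested, and their median log2 difference, mutant minus wild type, was -0.24, against -0.02 over all genes tested. Limma called 0 of the 39 at an adjusted p under 0.05, and 0% of all genes tested. At an unadjusted p under 0.05, limma gave 6 members lower and 0 higher, against 0.441% and 0.157% of all genes tested. Groups did not overlap for 7 members, all lower in the mutant, against 1.95% of all genes tested lower and 0.905% higher. Within pairs of arrays with the same number, 10 of the 39 were lower in every pair, against 9.46% of all genes tested. Higher in every pair were 0 of the 39, against 802 of the 12703 genes tested. A fit that blocks on the array number also gave 6 lower and 0 higher, against 0.795% and 0.441% of all genes tested.

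These counts depended on single arrays and on the scaling. Of those 6 members, 2, 5 and 3 kept an unadjusted p under 0.05 when wild-type arrays 1, 2 and 3 were omitted in turn. Omitting mutant arrays 1, 2 and 3 in turn left 3, 2 and 3 of them, and Slc17a6 was among those left each time. Rims1, not one of the 6, was also under 0.05 without mutant array 2, and Syngr1 was, as higher in the mutant, without mutant array 1. When array medians were set equal in place of quantile normalization, 1 was left, Stx1a. Over all genes tested, 0.205% were then lower at that p. The median of the tested members was -0.38 without mutant array 1 and -0.057 without mutant array 2, where the median over all genes tested was 0.06. Without mutant array 2, 23 of the 39 tested members and 18 of the 24 neuron-enriched ones were lower.

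**Figure D1:**
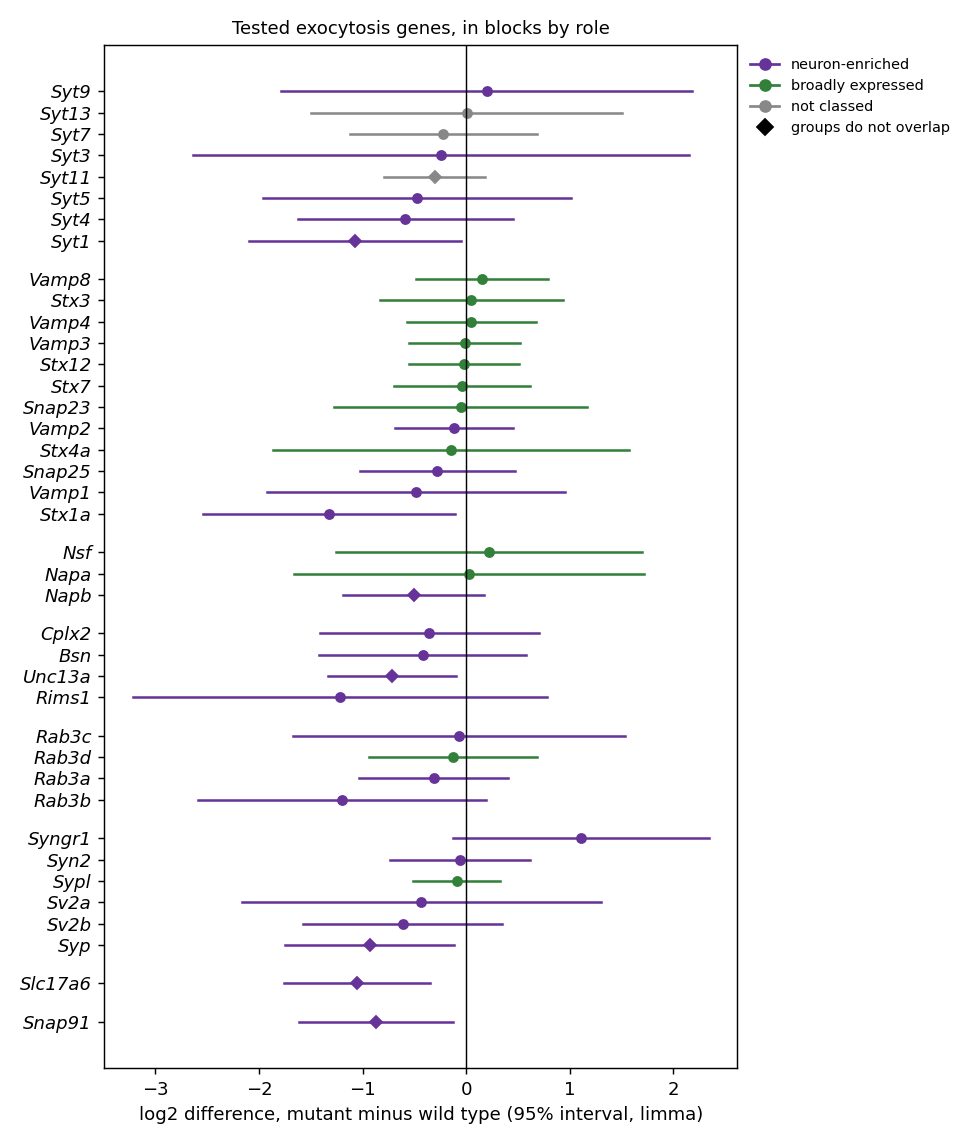
Log2 difference, mutant minus wild type (horizontal axis), for the 39 tested genes, in blocks by role from calcium sensors at the top to the endocytic adaptor at the bottom; points are means, lines are 95% intervals from limma, and colour marks neuron-enriched, broadly expressed and unclassed genes. The 7 diamonds, genes whose groups do not overlap, all lie to the left of 0, and the 12 broadly expressed genes lie between -0.14 and 0.22.

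The tested members were classed by where they are commonly expressed. These classes were chosen with earlier results of these data known, and 3 members, Syt7, Syt11 and Syt13, were left unclassed. Of 24 neuron-enriched members 22 were lower in the mutant, with a median difference of -0.48, and 6 of these had groups that did not overlap. The 12 broadly expressed members, among them Vamp3, Stx7 and Snap23, had 7 lower, a median of -0.02 and 0 with groups apart. Over all genes tested, 52.6% were lower and 1.95% were lower with groups apart, so 0 of 12 is close to that share. The neuron-enriched median was -0.61, -0.62 and -0.46 within pairs 1, 2 and 3, and the broadly expressed median 0.26, -0.32 and -0.004. Without both arrays numbered 3 these medians were -0.48 and -0.02. The difference between the classes was not tested.

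Slc17a6, the vesicular glutamate transporter VGLUT2 of olfactory neurons, had the smallest p of the list. Its log2 intensity was 10.15, 9.72 and 9.96 on the wild-type arrays and 8.98, 9.28 and 8.41 on the mutant arrays. Every mutant array lay below every wild-type array. The means were 9.94 ± 0.21 and 8.89 ± 0.44 (SD, n = 3 each), a difference of -1.05 (SE 0.32), or 2.08-fold lower, with an unadjusted p of 0.00697 and an adjusted p of 1 (limma). Leaving out any 1 array kept the unadjusted p at or under 0.0313, with differences between -1.27 and -0.81. A dimmer probe set of the gene differed by -0.74 (SE 0.83), with groups that overlapped. Its paralog Slc17a7, the transporter VGLUT1 of forebrain neurons, was too dim to be tested, with log2 intensities of 4.75, 3.65 and 4.39 in wild-type pups and 4.76, 5.17 and 4.28 in mutant pups.

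Among the proteins that prepare vesicles for fusion, Unc13a led. It encodes Munc13-1, which opens syntaxin so that SNARE complexes can form. On the log2 scale it read 9.76, 9.96 and 10.28 on the wild-type and 9.40, 9.03 and 9.43 on the mutant arrays. The groups lay apart, and the difference was -0.71 (SE 0.28), or 1.64-fold lower (limma, unadjusted p = 0.0275, adjusted p = 1). The other members of this role were lower on average with groups that overlapped. The active zone scaffold Bsn differed by -0.42 (SE 0.45), the complexin Cplx2, which clamps and aids fusion, by -0.36 (SE 0.48), and the active zone protein Rims1 by -1.22 (SE 0.91). Rims1 was uneven between mutant pups, at 4.56, 7.58 and 4.02 against 6.94, 6.49 and 6.37 in wild type; without mutant array 2 it differed by -2.29 (limma, unadjusted p = 0.0127). Cplx1 was too dim to be tested.

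Snap91 encodes AP180, a clathrin adaptor that helps retrieve vesicle membrane after fusion. Log2 intensities were 9.73, 9.01 and 9.20 in wild-type pups and 8.45, 8.60 and 8.27 in mutant pups. All mutant arrays were below all wild-type arrays, by -0.87 on average (SE 0.34), or 1.83-fold (limma, unadjusted p = 0.0253, adjusted p = 1). A second, dim probe set of Snap91 lay at the floor on 4 arrays.

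The upstream sequences of the 3 members with the smallest p are shown because KLF7 belongs to a family that binds CACCC and GC-rich boxes. Each is the 250 bases before the gene's first listed start, from RefSeq on GRCm38.p6, written 5′ to 3′ on the gene's strand. Capitals mark CACCC and the GC box GGGCGG, as written or as the complement that places them on the other strand.
Slc17a6, chr7:51621580-51621829, plus strand: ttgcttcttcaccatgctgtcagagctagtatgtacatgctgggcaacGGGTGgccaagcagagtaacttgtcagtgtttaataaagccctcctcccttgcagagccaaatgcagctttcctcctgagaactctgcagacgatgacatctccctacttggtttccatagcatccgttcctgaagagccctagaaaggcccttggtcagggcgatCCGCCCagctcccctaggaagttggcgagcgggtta
Snap91, chr9:86880709-86880958, minus strand: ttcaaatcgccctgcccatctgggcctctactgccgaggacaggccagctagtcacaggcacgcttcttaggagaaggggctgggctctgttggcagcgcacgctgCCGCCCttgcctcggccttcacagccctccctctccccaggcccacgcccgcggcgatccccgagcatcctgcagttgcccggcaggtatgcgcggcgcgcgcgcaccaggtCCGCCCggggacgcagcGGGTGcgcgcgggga
Unc13a, chr8:71671758-71672007, minus strand: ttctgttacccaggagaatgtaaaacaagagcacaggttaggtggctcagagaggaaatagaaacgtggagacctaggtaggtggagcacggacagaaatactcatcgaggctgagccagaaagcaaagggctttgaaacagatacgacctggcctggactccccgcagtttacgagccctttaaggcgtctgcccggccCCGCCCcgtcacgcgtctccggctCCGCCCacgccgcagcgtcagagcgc
Slc17a6 held 1 CACCC and 1 GC box, Snap91 held 1 and 2, and Unc13a held 0 and 2. CACCC stood in this window for 24 of the 38 members with an entry (63.2%), for 57.2% of the 10195 tested genes with an entry and for 52.0% of all 32851 promoters in the table. The GC box stood in 26 of the 38 (68.4%), 58.0% and 32.7%. The cyclic AMP response element TGACGTCA stood in 1 of the 38, Syn1, against 2.65% of tested genes and 1.55% of all promoters, and the palindromic core motif of the EBF family, factors of olfactory neurons, in 0 of 38, against 0.991% and 0.779%. Both strands were searched for each motif, and none of these 4 motifs contains another. These are matches of letters, with no measurement of binding.

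Of 6 tested vesicle membrane proteins, 5 were lower on average. Syp encodes synaptophysin, an abundant membrane protein of synaptic vesicles. The arrays read 8.58, 8.49 and 8.83 in wild-type pups and 7.66, 7.66 and 7.78 in mutant pups. The arrays within each group lay close together and the groups far apart, with a difference of -0.93 (SE 0.37), or 1.91-fold lower (limma, unadjusted p = 0.029, adjusted p = 1). The 3 same-numbered pairs gave -0.91, -0.84 and -1.05. A second Syp probe set was at the floor on 5 arrays.

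Sypl, the relative of synaptophysin found in many tissues, was at 11.16, 11.17 and 11.57 in wild-type pups and 11.09, 11.23 and 11.30 in mutant pups. Its groups overlapped, with a difference of -0.09 (95% interval -0.52 to 0.33, limma); its 6 bright probe sets went both ways. Sv2b, a vesicle glycoprotein that carries synaptotagmin, differed by -0.61 (SE 0.43) and Sv2a by -0.43 (SE 0.79). Both had groups that overlapped, and Sv2c lay at or near the floor on 5 of the 6 arrays. Syn2, a synapsin that tethers vesicles in the reserve pool, differed by -0.06 (SE 0.31).

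Syngr1, which encodes synaptogyrin 1 of the vesicle membrane, had the opposite sign. Its log2 intensity was 7.15, 7.49 and 6.56 in wild-type pups and 7.13, 8.34 and 9.05 in mutant pups, a difference of 1.11 (SE 0.56, limma unadjusted p = 0.0737). The groups overlapped through mutant array 1; without that array the difference was 1.60, with an unadjusted p of 0.0165. A dimmer probe set of Syngr1 differed by -0.23 (SE 1.08). Syngr3 was at the floor on all 3 wild-type arrays and between 3.66 and 5.07 on the mutant arrays.

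Syn1, the other synapsin among the 48, was too dim over the 6 arrays to enter the main test, yet had the most negative difference of the 48. Its log2 intensity was 6.02, 5.85 and 5.13 in wild-type pups and 4.36, 3.65 and 3.93 in mutant pups. The value of mutant array 2 is the floor itself, an upper bound there. The groups did not overlap, and the same-numbered pairs gave -1.66, -2.20 and -1.21. With fewer dim genes left out, the difference of -1.69 had an unadjusted p of 0.0281, and with none left out 0.00561, each with an adjusted p of 1 (limma).

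**Figure D2:**
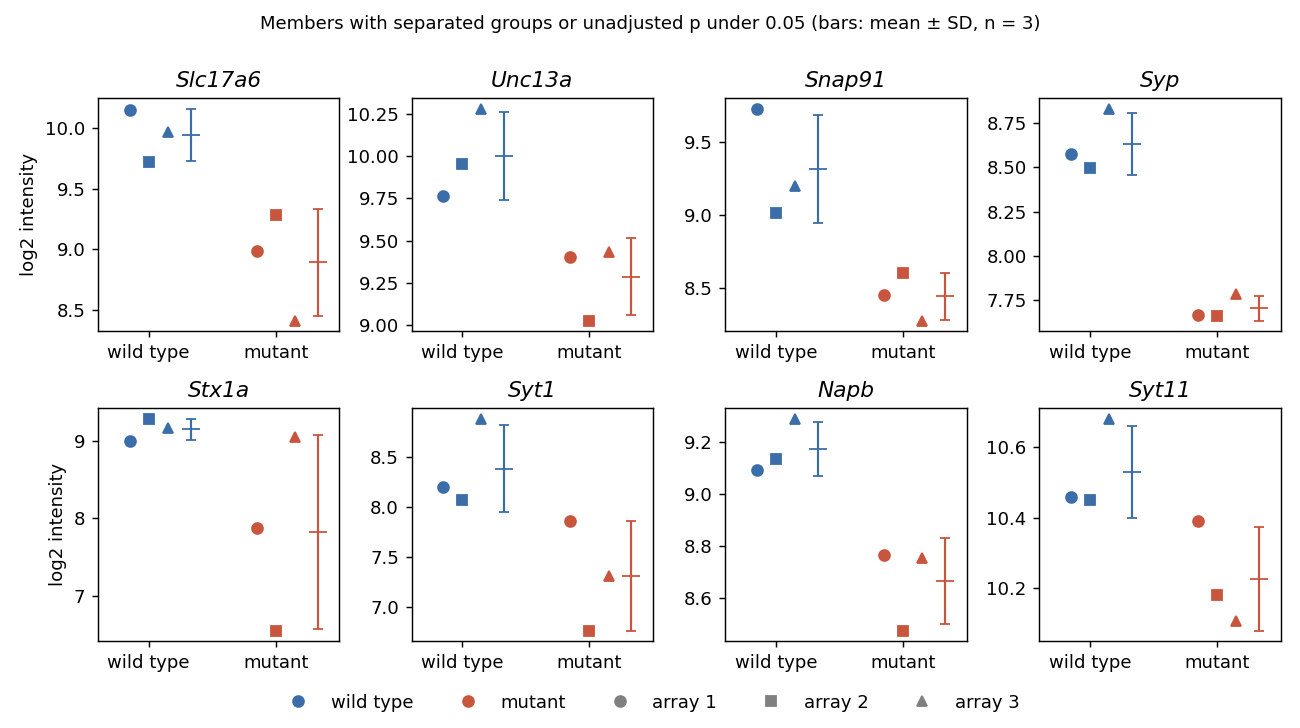
Log2 intensity (vertical axis, a separate range in each panel) on the 3 wild-type (blue) and 3 mutant (red) arrays for the 8 tested genes with groups apart or an unadjusted p under 0.05; symbols give the array number and bars the mean ± SD. Stx1a is the 1 panel in which the groups overlap, through mutant array 3 at 9.05.

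Most SNARE genes had differences near 0, apart from the syntaxin Stx1a. Of 12 tested SNARE genes 9 were lower on average, but the median difference was -0.04. Stx1a, the plasma membrane syntaxin of neurons, was at 9.00, 9.28 and 9.16 in wild-type pups and 7.87, 6.55 and 9.05 in mutant pups. The wild-type pups were alike and the mutant pups spread widely, with means of 9.15 ± 0.14 and 7.82 ± 1.25 (SD, n = 3 each). The difference was -1.32 (SE 0.55), or 2.50-fold lower (limma, unadjusted p = 0.0361, adjusted p = 1), and -0.70 without mutant array 2. That probe set is of a type (named with an x) whose probes can match other transcripts. The dimmer Stx1a probe set, of the gene-specific type, gave 6.03, 5.63 and 6.15 against 4.84, 4.24 and 4.50. Its groups did not overlap, and it differed by -1.41 (SE 0.49, limma on all single-gene probe sets). Both Stx1a probe sets were thus lower in the mutant by a similar amount.

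Stx4a, a syntaxin of many cell types, differed by -0.14 (95% interval -1.86 to 1.58). Stx7 and Stx12, syntaxins of endosomes, differed by -0.04 (SE 0.30) and -0.02 (SE 0.24), and Stx3, a syntaxin of apical membranes and sensory cells, by 0.05 (SE 0.40). For none of these 4 did the groups lie apart. A second bright Stx12 probe set differed by -0.45 (SE 0.24), also with groups that overlapped.

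Snap25, the neuronal partner of syntaxin 1A, was at 11.49, 10.64 and 10.19 in wild-type pups and 10.23, 11.02 and 10.24 in mutant pups. The groups overlapped, and the difference was -0.28 (95% interval -1.03 to 0.47, limma). Its second bright probe set differed by -0.63 (SE 0.39). Snap23, the relative used outside neurons, differed by -0.05 (95% interval -1.27 to 1.17), an interval wide enough to hold the Snap25 value. A second bright Snap23 probe set differed by -0.89 (SE 0.76), with groups that overlapped.

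Vamp2, the main vesicle SNARE of synapses, differed by -0.12 (95% interval -0.69 to 0.46). Vamp3, its widely expressed relative, was at 11.28, 11.55 and 10.85 in wild-type pups and 11.56, 11.21 and 10.87 in mutant pups, a difference of -0.01 (95% interval -0.55 to 0.52). For these probe sets, neither interval holds a fall as large as 1 log2 unit. A second bright Vamp2 probe set differed by -0.67 (SE 0.76), with groups that overlapped. That Vamp3 probe set is also of the type named with an x. Another bright Vamp3 probe set, of the gene-specific type, differed by 0.03 (SE 0.12). Vamp1, found in motor and sensory neurons, differed by -0.48 (SE 0.65), and Vamp4 and Vamp8, of the Golgi and of endosomes and secretory granules, by 0.05 (SE 0.28) and 0.15 (SE 0.29).

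**Figure D3:**
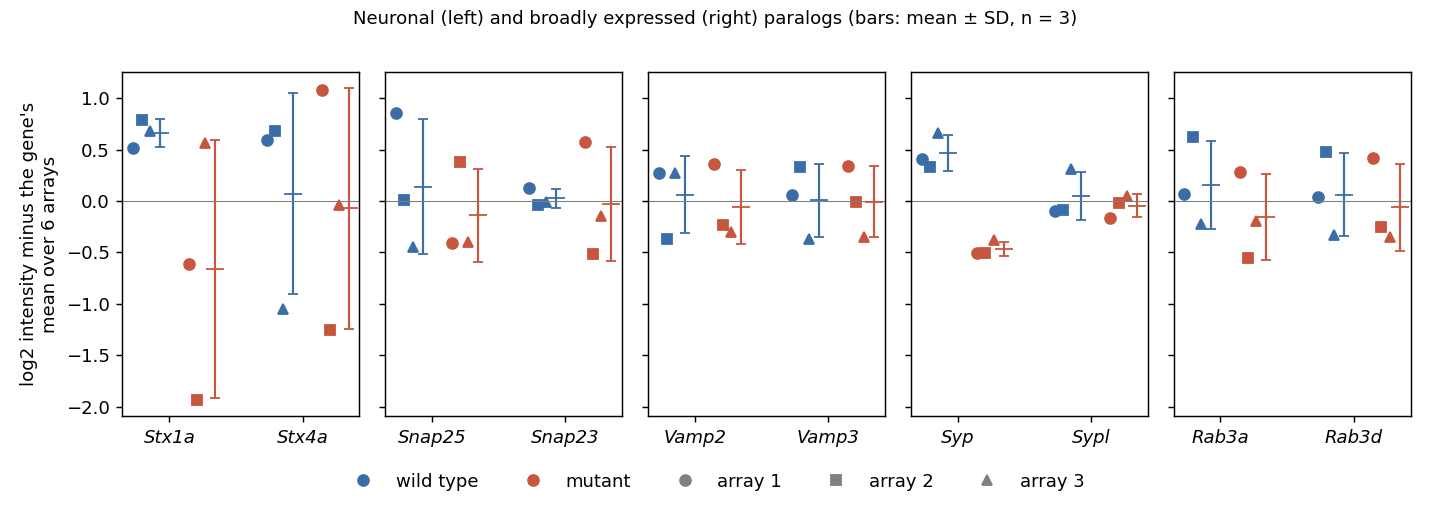
Log2 intensity minus the gene's own mean over the 6 arrays (vertical axis) for 5 pairs of paralogs, the neuronal gene on the left of each panel and the broadly expressed one on the right; blue is wild type, red is mutant, symbols give the array number and bars the mean ± SD (n = 3). Syp is the 1 gene of the 10 whose groups lie apart; Stx1a is low on mutant arrays 1 and 2 and near the wild-type arrays on mutant array 3.

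Synaptotagmins are vesicle proteins, several of which sense calcium. Of 8 tested, 6 were lower on average, with a median of -0.27. Syt1, the sensor for fast release, was at 8.20, 8.07 and 8.88 in wild-type pups and 7.86, 6.76 and 7.31 in mutant pups. The groups lay apart, by a small gap at mutant array 1, with a difference of -1.07 (SE 0.46), or 2.10-fold lower (limma, unadjusted p = 0.0413, adjusted p = 1). A second bright Syt1 probe set went the other way on average, at 6.08, 8.07 and 7.10 in wild-type pups and 5.85, 9.57 and 6.82 in mutant pups. It differed by 0.33 (SE 1.07) with groups that overlapped, and the mean of all Syt1 probe sets differed by -0.22.

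Syt11, a synaptotagmin that does not bind calcium, was at 10.46, 10.45 and 10.68 in wild-type pups and 10.39, 10.18 and 10.11 in mutant pups. The groups lay apart by little, with a difference of -0.30 (SE 0.22), or 1.24-fold, and an unadjusted p of 0.198 (limma). All 5 of its probe sets were lower on average. Syt4 differed by -0.59 (SE 0.47), Syt5 by -0.47 (SE 0.67), Syt3 by -0.24 (SE 1.09) and Syt7 by -0.22 (SE 0.41), each with groups that overlapped. Syt13 and Syt9 differed by 0.01 (SE 0.68) and 0.20 (SE 0.90). Syt2, Syt6, Syt12 and Syt17 were too dim to be tested.

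Rab3 proteins are small GTPases that bring vesicles to the release site, and all 4 genes were tested. Rab3a, the main form in brain, was at 9.76, 10.31 and 9.47 in wild-type pups and 9.98, 9.13 and 9.50 in mutant pups. Its groups overlapped, with a difference of -0.31 (SE 0.33). Rab3b was at 8.40, 8.28 and 7.37 in wild-type pups and 7.35, 5.46 and 7.66 in mutant pups. Its difference of -1.20 (SE 0.63, limma unadjusted p = 0.0854) leaned on mutant array 2, and was -0.52 without that array. Without wild-type array 3, and without mutant array 3, Rab3b was lower at an unadjusted p under 0.05 (limma). Rab3c and Rab3d, the latter of exocrine glands, differed by -0.07 (SE 0.73) and -0.13 (SE 0.37). Second bright probe sets of Rab3a and Rab3d differed by -0.60 (SE 0.55) and -0.53 (SE 0.87).

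Napb encodes the neural SNAP cofactor of NSF. Arrays read 9.09, 9.13 and 9.29 in wild-type pups and 8.76, 8.47 and 8.75 in mutant pups. The groups lay apart, and the difference was -0.51 (SE 0.31), or 1.42-fold (limma, unadjusted p = 0.132). Dimmer Napb probe sets above the brightness limit differed by -0.21, 0.12 and 0.23. Napa, the form of all cells, and Nsf itself differed by 0.03 (SE 0.77) and 0.22 (SE 0.67), and both turned on wild-type array 3. There Napa was at 5.49 against 8.39 and 8.67 on wild-type arrays 1 and 2, and Nsf at 5.79 against 8.43 and 8.38. Without that array Napa differed by -1.005 and Nsf by -0.66, with unadjusted p of 0.0546 and 0.145 (limma). Without both arrays numbered 3, Napa was lower at an unadjusted p under 0.05 (limma). Other bright probe sets differed by -0.47 (SE 0.64) for Napa and by -0.59 (SE 0.53) and -0.88 (SE 0.90) for Nsf.

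Probe sets of 1 gene did not always have the same sign. The 48 genes had 124 probe sets with 1 gene symbol, of which 82 were above the brightness limit. Of 24 genes with several of these, 15 had all of them on one side of 0. The 9 that did not were Syt1, Syngr1, Napb, Napa, Nsf, Bsn, Stx3, Sypl and Vamp3.

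The wider release machinery was close to even between the directions. Of 131 other genes on lists of SNARE and Sec1/Munc18 proteins, synaptotagmin-like proteins, vesicle membrane proteins, active zone proteins, endocytosis and the exocyst, 119 had a probe set and 101 were tested. Of these 54 were lower and 47 higher on average, with a median of -0.04. Limma called 0 of them at an adjusted p under 0.05, with 1 lower and 0 higher at an unadjusted p under 0.05. Over all genes tested, limma gave 0.441% lower and 0.157% higher at that unadjusted p. Groups lay apart for 4 lower and 1 higher, against 1.95% and 0.905% of all genes tested.

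The 1 gene of these lists at an unadjusted p under 0.05 (limma) was in the active zone list. Cacna1b encodes the pore of the N-type calcium channel that admits calcium at release sites. Its mean log2 intensity was 7.92 in wild type and 6.21 in mutant, a difference of -1.71 (SE 0.57, limma unadjusted p = 0.0123, adjusted p = 1). Unc13b, the Munc13 relative of Unc13a, differed by -0.58 (SE 0.33), with groups apart. The active zone list had 13 of 20 lower and a median of -0.21. The endocytosis list had 11 of 24 lower and a median of 0.01. In it Amph (amphiphysin) differed by -1.10 (SE 0.76), with groups apart, and Ap2m1, a subunit of the clathrin adaptor AP-2, by -0.26 (SE 0.27). In the synaptotagmin-like list, with 5 of 9 lower and a median of -0.04, Cadps, a priming factor of dense-core vesicles, differed by -0.73 (SE 0.44) and Rab27b by 0.51 (SE 0.44).

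The other lists had medians near 0. Other SNARE and Sec1/Munc18 genes had 11 of 25 lower and a median of 0.04, with Snap47 at -0.31 (SE 0.30) and Napg, the gamma SNAP cofactor, at -0.19 (SE 0.18). Other vesicle membrane genes had 9 of 15 lower and a median of -0.07, with Atp6ap2 and Atp6v0d1, of the vesicle proton pump, at 0.31 (SE 0.24) and -0.43 (SE 0.41). The exocyst, which tethers vesicles in all cells, had 5 of 8 lower and a median of -0.07, with Exoc6 at -0.37 (SE 0.27) and Exoc3 at -0.31 (SE 0.38).

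Markers of mature olfactory neurons were also lower on average in the mutant. Of 13 such markers with a probe set, out of 18 listed, 11 were lower, with a median difference of -0.66. Groups lay apart for 6, all lower, against 1.95% of all genes tested. The smallest p were those of Stoml3, at -0.86 (SE 0.24), and of Gnal, the G protein subunit of odour signalling, at -0.92 (SE 0.26). The 2 higher markers were Cngb1, at 0.73 (SE 0.69), and Adcy3, at 0.36 (SE 0.45). The summed intensity of the 13 markers was 9998 to 12334 on wild-type arrays and 6626 to 7813 on mutant arrays. For the 24 neuron-enriched exocytosis genes it was 11366 to 14676 and 9375 to 10058. Neither sum overlapped between groups, while the sum of the 12 broadly expressed members did, at 9446 to 10913 and 8930 to 11496. Immature neuron markers had 10 of 12 lower, a median of -0.26 and sums of 20417 to 23926 against 18961 to 19590. Among them Stmn2, a microtubule regulator of growing axons, differed by -0.94 (SE 0.23, limma unadjusted p = 0.0016, adjusted p = 1). The 2 higher ones, Nhlh2 and Stmn1, differed by 0.19 (SE 0.20) and 0.05 (SE 0.20). No mature or immature neuron marker with a probe set lay at the floor on all arrays. The part of neuron content in the exocytosis result was not tested.

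Genes of secretory granules that neuroendocrine cells also use had 5 of 6 lower and a median of -0.31. Groups lay apart for 3, all lower, against 1.95% of all genes tested. Summed intensities were 6351 to 6649 in wild type and 4832 to 5761 in mutant. Scg3, a granin of dense-core granules, differed by -0.96 (SE 0.44), and Chgb by -0.92 (SE 0.45). The 1 higher gene of this list differed by 0.62. Markers of the central nervous system, which a dissection could carry along from the olfactory bulb, had 5 of 9 tested lower and sums that overlapped, at 4128 to 5746 and 4509 to 5456. Of the 15 with a probe set, Tbx21, of bulb projection neurons, and Th, of bulb dopamine neurons, lay at the floor on all 6 arrays. Others were measured. Eomes, also of bulb projection neurons, had means of 4.70 in wild type and 5.56 in mutant, and was too dim to be tested. For Gad2, of inhibitory neurons, the means were 6.53 and 6.37, and for Mbp, of myelin, 8.62 and 8.76. For Aqp4, of astrocytes and some epithelia, the means were 11.14 and 11.23. The part of these markers in the exocytosis result was not tested. Peripheral sensory and autonomic neuron markers had 3 of 5 tested lower and overlapping sums of 1845 to 3901 and 2087 to 3182. Groups lay apart for 2 of them, 1 lower and 1 higher, against 1.95% and 0.905% of all genes tested. Prph, the intermediate filament peripherin, was at 6.57, 7.05 and 7.47 in wild-type pups and 4.63, 3.65 and 4.59 in mutant pups, with mutant array 2 at the floor. Its difference of -2.74 (SE 0.70, limma unadjusted p = 0.00239, adjusted p = 1) was the most negative of all 12703 genes tested. Isl1, a transcription factor of sensory neurons, differed by 0.62 (SE 0.31), with each mutant array above each wild-type array. The sums of sustentacular and gland, horizontal basal, vomeronasal and muscle markers overlapped between groups too. Of the tested sustentacular and gland markers 8 of 10 were higher in the mutant, with a median of 0.23. Horizontal basal markers had 6 of 7 higher and a median of 0.365, with medians of 1.56, -1.86 and 1.18 within pairs 1, 2 and 3. Vomeronasal markers had 4 of 6 lower, and the 2 tested muscle markers were higher. The part of these lists in the exocytosis result was not tested.

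**Figure D4:**
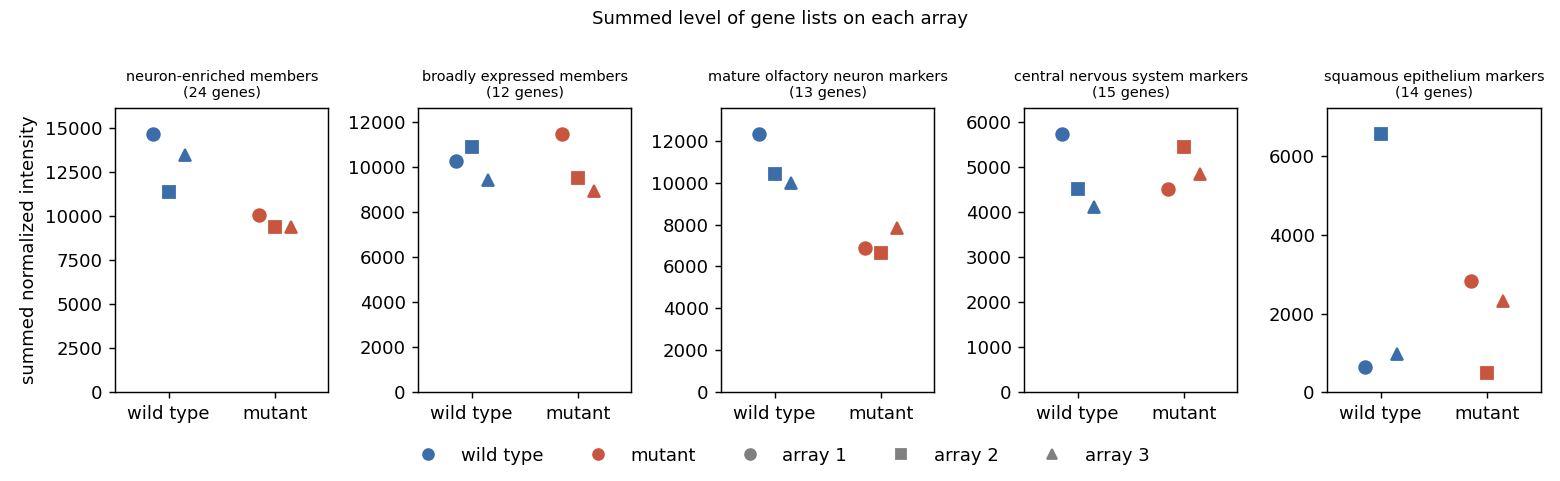
Summed normalized intensity (vertical axis, from 0, with a separate range in each panel) of 5 gene lists on each wild-type (blue) and mutant (red) array, with symbols for the array number. The groups lie apart for neuron-enriched members and mature olfactory neuron markers, and overlap for broadly expressed members, central nervous system markers and squamous epithelium markers.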

How the data were processed

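The authors deposited 1 linear intensity per probe set and array, for 45037 probe sets on 6 arrays; per the labels, RNA was amplified into biotin-labelled cDNA. The sources used here do not give how probes were condensed, corrected and scaled. Array medians differed by 0.69 on the log2 scale, so arrays were quantile normalized, set to at least the 20th percentile of all values (intensity 12.56) and taken to log2, which understates differences of dim genes. Names came from the platform annotation, the brightest single-symbol probe set was kept per gene, and genes in the lowest 40% (below 5.19) were left out.

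The test was limma 3.58.1 (R 4.3.3), with an intensity trend in eBayes; p-values are two-sided and adjusted ones are Benjamini-Hochberg values over every gene tested. The limma script was tested on simulated data. The number of arrays, 3 a group, limits precision; an exact permutation test could not give a p below 0.1. Members, roles, expression classes, lists and motifs were chosen with earlier results of these data known.

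Replicate numbers come from the labels. Deviations from group means of same-numbered arrays correlated at 0.47, 0.18 and 0.56 across genes, all above 0.1, so they were taken as pairs; wild-type array 2 correlated better with mutant array 1 (0.22). A fit blocking on the number was an alternative, beside other filters, floors, scalings, probe set choices, variance models, weights and left-out arrays. Named were all members, each with array values where groups lay apart, the unadjusted p was under 0.05 or the level was highest in its role, and the 2 genes of smallest p in each list of other release machinery; marker genes named were chosen after their values were seen.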

Additional observations from a re-analysis of the deposited data

How the results depend on the processing

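Each of 16 alternatives left 0 genes called at an adjusted p under 0.05 by limma, among them the replicate block, which changed no call and left 6 members at an unadjusted p under 0.05. The 8 members with array values and a direction stayed lower in the mutant under all 16. With array medians set equal, 1 member had an unadjusted p under 0.05 and 2 had groups apart, lower, in place of 6 and 7. Over all genes tested these shares also fell, to 0.205% and 0.804%, from 0.441% and 1.95%. With the mean of all single-gene probe sets these counts were 2 and 3, against 0.525% and 1.73% of all genes tested. Without both arrays numbered 3, groups lay apart for 15 members lower and 1 higher, and the median of members was -0.42. There, 2 arrays against 2 gave 12.3% of all genes tested lower with groups apart. Leaving out 1 array gave 2 to 6 members lower at an unadjusted p under 0.05, against 0.251% to 0.788% of all genes tested. Groups then lay apart for 8 to 13 members lower (3.72% to 7.33% of all genes, since fewer arrays separate more easily) and for 0 or 1 higher. The median of members was between -0.38 and -0.057, of neuron-enriched members between -0.72 and -0.38, and of broadly expressed members between -0.13 and 0.10. The causes of these shifts were not tested. Snap91 and Syp differed by -0.32 and -0.53 with the mean of their probe sets, which include sets at the floor.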
